A study of Mus musculus with 24 samples.

Results

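Hemoglobin and erythrocyte transcripts are followed here through 5 genes of the hypothalamus data: the alpha globins Hba-a1 and Hba-a2, the adult beta globins Hbb-bs and Hbb-bt, and Alas2, which encodes the erythroid form of the first enzyme of haem synthesis. They were chosen by name as a measure of blood left in the tissue, and all 5 of the 5 were found among the 55471 genes counted and passed the expression filter that left 18992 genes for testing. The libraries came from the hypothalamus of chow-fed male C57BL6/J mice, 18 weeks old, 1 library per mouse, all of which carried a gastric catheter and were infused throughout. ExpOF mice received a liquid diet by intragastric infusion in excess of their needs, and Control mice received sterile water at the same rate. Hypothalami were collected on d14, the end of overfeeding, or on d14+3, after 3 days in which ExpOF mice too were infused with water. Each of the groups Control d14, ExpOF d14, Control d14+3 and ExpOF d14+3 had 6 mice, and the study left out 1 Control d14 mouse for poor RNA quality. In the study's methods mice were killed by cervical dislocation, or by decapitation where trunk blood was taken, and perfusion of the vessels is described only for other mice. The study's tissue collections on these days took plasma together with brain, but whether from trunk blood is not stated. Whether these hypothalami were perfused is not given in the sources used here.

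An adult hemoglobin molecule joins alpha and beta chains around haem. Both chains are made in erythroid precursors of the bone marrow, and red cells that have just entered the circulation still carry their messenger RNA although they have lost the nucleus. Alas2 feeds the same cells with haem, whereas other tissues use Alas1. Brain samples that were not flushed hold blood in their vessels, which brings globin RNA with it, and globin transcripts have also been described in some neurons and glia. In bulk RNA, fewer or more cells of a type and less or more RNA per cell cannot be told apart.

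The 4 globin genes lie in 2 clusters of near copies, and their sequences are shown because they bear on how far reads of one can be told from those of the next. In the coordinates of the file (mm10), Hba-a1 (ENSMUSG00000069919) spans chr11:32283511-32284438 and Hba-a2 (ENSMUSG00000069917) chr11:32296489-32297255, both on the plus strand. Hbb-bs (ENSMUSG00000052305) spans chr7:103826534-103828096 and Hbb-bt (ENSMUSG00000073940) chr7:103812524-103813996 on the minus strand. Alas2 (ENSMUSG00000025270) spans chrX:150547375-150570638 on the plus strand. In the GENCODE vM21 transcripts the coding sequences of Hba-a1 and Hba-a2 are both 429 bases long and differ in 1 base, and those of Hbb-bs and Hbb-bt are both 444 bases long and differ in 1 base. Of the stretches of 51 bases (the read length) in the transcripts of a gene, those found in no other gene made up 10.9% for Hba-a2, 27.9% for Hba-a1, 41.8% for Hbb-bt, 46.9% for Hbb-bs and 88.6% for Alas2. The split of reads between near copies is therefore uncertain, and how the counting treated reads that fit both is not given in the sources used here. Alas2 overlaps Apex2 and Mir3620 on the opposite strand, and it is likewise not given whether counting used strand.

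The 150 bases upstream of the RefSeq start site (GRCm38.p6, on the strand of the gene) are printed for 4 of the 5 genes that are set against each other below. The gene spans given above begin upstream of these start sites. The windows of Hba-a1 and Hbb-bs therefore lie wholly inside the spans of their genes, and those of Hbb-bt and Alas2 partly. Capitals mark 4 short motifs on either strand: the CCAAT box (letters CCAAT or, reversed, ATTGG), the TATA box (letters TATAA or, reversed, TTATA), the CACCC box (letters CACCC or, reversed, GGGTG) and the GATA site (letters GATAA or, reversed, TTATC).
Hba-a1, chr11:32283522-32283671, plus: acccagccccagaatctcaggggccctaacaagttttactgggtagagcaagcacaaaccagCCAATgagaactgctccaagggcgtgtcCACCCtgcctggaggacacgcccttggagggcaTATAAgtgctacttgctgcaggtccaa
Hbb-bs, chr7:103827929-103828078, minus: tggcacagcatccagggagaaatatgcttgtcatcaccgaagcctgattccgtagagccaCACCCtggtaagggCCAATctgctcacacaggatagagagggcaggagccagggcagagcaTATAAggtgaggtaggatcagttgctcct
Hbb-bt, chr7:103813924-103814073, minus: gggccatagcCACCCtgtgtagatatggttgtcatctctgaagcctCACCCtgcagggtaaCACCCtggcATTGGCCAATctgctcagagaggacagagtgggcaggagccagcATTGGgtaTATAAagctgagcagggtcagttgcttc
Alas2, chrX:150547267-150547416, plus: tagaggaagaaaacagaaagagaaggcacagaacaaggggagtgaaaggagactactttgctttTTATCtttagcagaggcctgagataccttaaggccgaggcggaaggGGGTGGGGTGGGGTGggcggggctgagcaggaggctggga
The window of Hba-a2 is not printed because it is that of Hba-a1 moved by 3 bases. In longer RefSeq windows of the 2 genes, which reach beyond the 150 bases, all 297 bases compared were identical. All 4 globin windows held a CCAAT box, a TATA box and a CACCC box, with the TATA box beginning between positions -30 and -27 from the start site. Of 32851 RefSeq promoter windows of the same length, 1.1% held all 3 of these in either direction, 24.5% held the CCAAT box, 14.2% the TATA box, 37.4% the CACCC box and 13.3% the GATA site. The Alas2 window held neither a CCAAT box nor a TATA box and had TTATC at positions -86 to -82 and GGGTG 3 times. The forward and reversed TATA box can share letters, but no matches shared any in these windows, and a match describes letters, not a bound site.

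Depth, library by library, sets how well these genes are counted. Total counts ran from 8928182 to 34848437 in the 23 libraries used, and the 4 globins took between 0.00381% and 0.0272% of them. All 5 genes of the hypothalamic marker list (Nkx2-1, Hcrt, Pmch, Oxt and Avp) were present in every library. The left-out library is Control d14 replicate 4. It held 10922271 counts, and 32.8% of 18767 genes lay above and 39.9% below all the other 23 libraries in it. The fits leave it out, and values that include it are named as such. ExpOF d14 replicate 5, the shallowest library, was the highest of the 23 for every one of the 5 genes, and ExpOF d14+3 replicate 3 was the lowest for every one.

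Hbb-bs was the most abundant of the 5 by length as well as by count, with a median of 94.2 RPKM (counts scaled to library size and transcript length) over the 23 libraries, followed by Hba-a1 with 14.6, Hbb-bt with 8.38, Hba-a2 with 3.00 and Alas2 with 1.89 RPKM. From here on levels are CPM, counts scaled to library size with TMM factors and not to length. The same gene varied over the libraries by 6.31-fold for Hbb-bs, 7.28-fold for Alas2, 10.4-fold for Hbb-bt, 11.0-fold for Hba-a1 and 15.7-fold for Hba-a2. Within groups the SD of log2 CPM was 0.61 for Hbb-bs, 0.69 for Hba-a1, 0.88 for Hba-a2, 0.63 for Hbb-bt and 0.49 for Alas2. These SDs were larger than those of 100%, 99.3%, 98.6%, 99.1% and 96.2% of the tested genes of like mean level, whose median SD lay between 0.13 and 0.32. Counting alone is a small part of this for the globins with the most counts. Hbb-bs had at least 695 counts in every library and Hba-a1 at least 85, while Hba-a2 fell to 11 counts in 1 library.

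The 5 Control d14 libraries in use were close together for Hbb-bs, the adult beta globin with more counts: 82.1, 94.2, 77.0, 93.5 and 88.4 CPM in replicates 1, 2, 3, 5 and 6. The 6 ExpOF d14 libraries ran from 41.0 through a median of 72.1 to 200.5 CPM, with 3 of them under every control and 2 above every control. In Control d14+3 the lowest, median and highest were 41.1, 60.1 and 103.5 CPM, and in ExpOF d14+3 they were 31.8, 54.8 and 94.2 CPM. The groups overlapped on each day. In order of the mean, Hbb-bs was 93.4 ± 59.2 CPM (SD, n = 6) in ExpOF d14, 87.0 ± 7.44 (n = 5) in Control d14, 63.6 ± 24.2 (n = 6) in Control d14+3 and 56.9 ± 25.0 (n = 6) in ExpOF d14+3, and each neighbour in this order differed by less than the larger SD of the pair.

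Hba-a1, an alpha globin, followed the same course. It stood at 18.1, 21.6, 15.8, 17.4 and 17.6 CPM in the Control d14 replicates 1, 2, 3, 5 and 6. ExpOF d14 ranged from 8.44 through 14.2 to 42.6 CPM, Control d14+3 from 7.90 through 11.0 to 22.4, and ExpOF d14+3 from 3.89 through 8.83 to 18.5 CPM. Here too 3 ExpOF d14 libraries lay under all controls. Its means were 19.0 ± 13.2, 18.1 ± 2.15, 13.4 ± 5.54 and 9.53 ± 5.30 CPM in ExpOF d14, Control d14, Control d14+3 and ExpOF d14+3 (SD, n as above), with neighbours again closer than the larger SD.

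Its near copy Hba-a2 was counted least among the globins. Control d14 replicates 1, 2, 3, 5 and 6 had 1.82, 2.94, 1.51, 3.25 and 4.54 CPM. The ExpOF d14 libraries ran from 0.715 through 1.90 to 7.89 CPM. On d14+3 the controls ran from 1.25 through 2.45 to 5.06 CPM and the ExpOF libraries from 0.503 through 0.823 to 2.64 CPM, and 4 of the 6 ExpOF libraries lay under every control of that day. Group means were 2.81 ± 1.21 CPM in Control d14, 2.77 ± 1.32 in Control d14+3, 2.66 ± 2.68 in ExpOF d14 and 1.12 ± 0.808 in ExpOF d14+3.

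Hbb-bt, the adult beta globin with fewer counts, had 6.71, 7.36, 5.34, 5.89 and 9.28 CPM in the Control d14 replicates 1, 2, 3, 5 and 6. It ran from 3.21 through 6.46 to 22.3 CPM in ExpOF d14, where 1 library stood far above the rest. In Control d14+3 the lowest, median and highest were 4.34, 5.31 and 9.15 CPM, and in ExpOF d14+3 they were 2.15, 4.55 and 6.49 CPM. The group means were 8.79 ± 6.99, 6.92 ± 1.53, 5.84 ± 1.80 and 4.45 ± 1.73 CPM in ExpOF d14, Control d14, Control d14+3 and ExpOF d14+3.

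Alas2, the enzyme gene, had 7.60, 5.84, 5.42, 5.69 and 4.54 CPM in the Control d14 replicates 1, 2, 3, 5 and 6. It ran from 3.45 through 4.86 to 14.0 CPM in ExpOF d14, from 3.08 through 4.22 to 5.97 in Control d14+3, and from 1.92 through 3.41 to 4.78 in ExpOF d14+3. Means were 6.40 ± 3.89, 5.82 ± 1.12, 4.44 ± 1.12 and 3.42 ± 1.04 CPM in ExpOF d14, Control d14, Control d14+3 and ExpOF d14+3, and only the step between the control groups exceeded the larger SD of the pair. All 5 genes had their lowest mean in ExpOF d14+3.

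**Figure D1:**
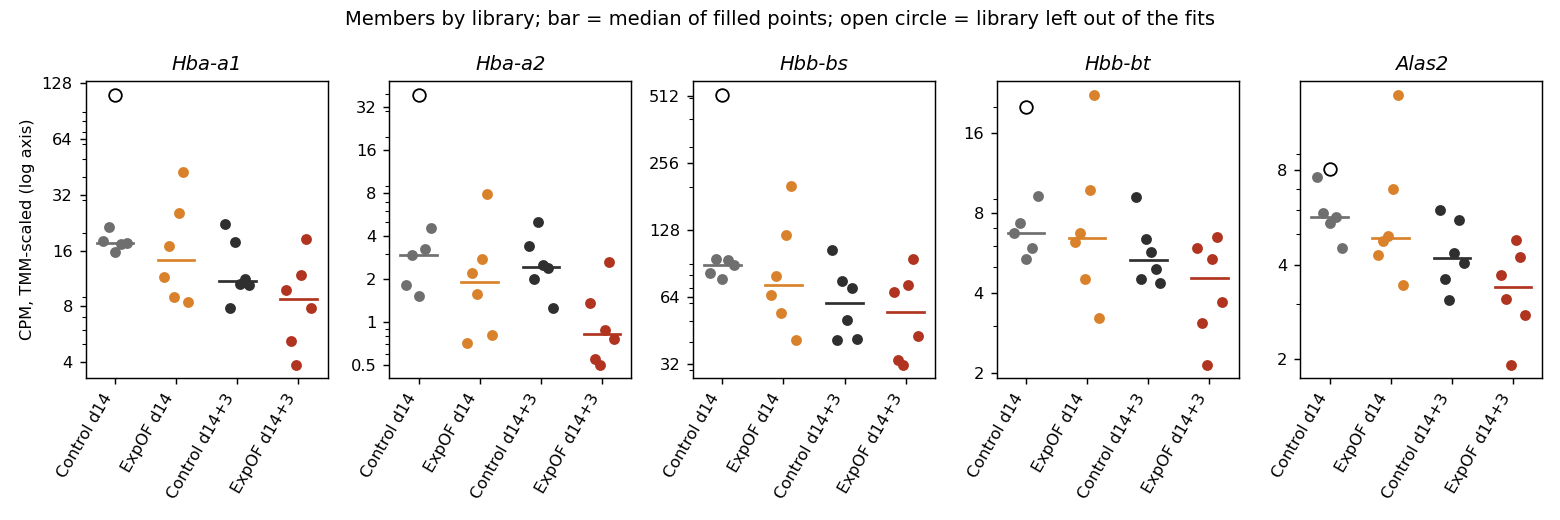
Level of each of the 5 genes in every library (CPM scaled with TMM factors, log axis), by group; bars are medians of the filled points and the open circle is Control d14 replicate 4, scaled together with the other 23 libraries. ExpOF d14 replicate 5 is the highest filled point in every panel (200.5 CPM for Hbb-bs), and the Control d14 points for Hbb-bs span only 77.0 to 94.2 CPM.

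The design asks first whether overfeeding changed these transcripts by d14. None of the 5 was called between ExpOF and Control mice on d14 by edgeR's quasi-likelihood test (adjusted p under 0.05 over all tested genes), where 0.00527% of the genes tested were called, and DESeq2 called none of the 5 either. At an unadjusted p under 0.05 it was again 0 of the 5, although 26.7% of all genes passed that mark. The log2 fold changes were 0.02 for Hba-a1 (SE 0.40), -0.27 for Hba-a2 (SE 0.49), 0.09 for Hbb-bs (SE 0.36), 0.26 for Hbb-bt (SE 0.36) and 0.08 for Alas2 (SE 0.27), with adjusted p between 0.641 and 0.975. For Hbb-bs the 95% interval ran from -0.66 to 0.83, and differences within it are not excluded by these data. Two-sided exact permutation tests of the single genes gave p between 0.489 and 0.983, where the smallest possible was 0.00216. They compare means of log2 CPM, in which ExpOF minus Control was -0.18 for Hba-a1, -0.10 for Hbb-bs and -0.0087 for Alas2, opposite in sign to the fitted values. ExpOF d14 replicate 5 set the sign of 4 of these values: without it, Hba-a1 was at -0.34, Hbb-bs at -0.28, Hbb-bt at -0.19 and Alas2 at -0.24. Hba-a1 was also below 0 without Control d14 replicate 3 (-0.02) or ExpOF d14 replicate 4 (-0.11), Hbb-bs without ExpOF d14 replicate 4 (-0.02) and Alas2 without Control d14 replicate 6 (-0.01). The number of genes called over the whole table was 1 gene in the 23 libraries, 4220 without Control d14 replicate 1 and 3 without Control d14 replicate 3. With the left-out library included, Hba-a2 stood at -1.80 (adjusted p = 0.0813 in edgeR), Hba-a1 at -0.82 (0.219), Hbb-bs at -0.76 (0.218), Hbb-bt at -0.06 and Alas2 at 0.02. In the cohort of mice killed in July the values were 0.31, 0.04, 0.39, 0.59 and 0.45 for Hba-a1, Hba-a2, Hbb-bs, Hbb-bt and Alas2, and in that killed in September -0.31, -0.56, -0.29, -0.10 and -0.37, with none called in either.

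On d14+3 all 5 values lay below 0, where 52.1% of all genes lay above it, and the 5 vary together. None was called (0% of the genes tested were called in edgeR, and DESeq2 called none of the 5). Hba-a2 had a log2 fold change of -1.34 (SE 0.50, 95% interval -2.38 to -0.31, unadjusted p = 0.0131, adjusted p = 0.550 in edgeR), and it was the single gene of the 5 with an unadjusted p under 0.05, where 4.2% of all genes passed in this direction. Its two-sided exact permutation test gave p = 0.0195, and 5 of the 6 ExpOF libraries lay below the control median. The others were at -0.50 for Hba-a1, -0.16 for Hbb-bs, -0.39 for Hbb-bt and -0.36 for Alas2, with adjusted p from 0.775 to 0.902 and exact permutation p from 0.139 to 0.567. Without Control d14+3 replicate 1, Hbb-bs was at 0.04. With the counts of Hba-a1 and Hba-a2 added together, the alpha globins were at -0.61 (SE 0.40). Hba-a2 averaged 12.9% of alpha counts over the 23 libraries, so this sum is mostly Hba-a1 as counted, and that share itself depends on how reads were split. The sum therefore cannot tell how far the Hba-a2 value depends on the uncertain split of reads between the copies. The values also differed between cohorts, in July being -1.25, -2.29, -0.80, -0.82 and -0.69 for Hba-a1, Hba-a2, Hbb-bs, Hbb-bt and Alas2, and in September -0.04, -0.75, 0.25, -0.13 and -0.13. None was called in either cohort, and the difference between the cohorts was not tested. Whether overfeeding acted differently on the 2 days was tested as an interaction, which called none of the 5 in edgeR or DESeq2 (0% of genes called; adjusted p of at least 0.903 in edgeR and 0 of the 5 with an unadjusted p under 0.05).

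Within ExpOF mice the levels on d14+3 were compared with those on d14. The log2 fold changes were -0.95 for Hba-a1 (SE 0.39), -1.10 for Hba-a2 (SE 0.52), -0.70 for Hbb-bs (SE 0.35), -0.90 for Hbb-bt (SE 0.35) and -0.83 for Alas2 (SE 0.27). None was called (0% of the genes tested), the smallest adjusted p being 0.275 for Alas2 in edgeR and 0.0660 for Alas2 in DESeq2. At an unadjusted p under 0.05, 4 of the 5 were lower, against 2.4% of all genes, and since the 5 vary together they are not 4 separate observations. Leaving out ExpOF d14 replicate 5, a choice made after the data were seen, brought them to -0.59, -0.55, -0.34, -0.45 and -0.51 in the same order (adjusted p from 0.607 to 0.985 in edgeR). In Control mice the values were -0.43, -0.03, -0.45, -0.25 and -0.39 and none was called (adjusted p of at least 0.610 in edgeR, 0 of the 5 with an unadjusted p under 0.05 and 0 in DESeq2), where 1.15% of the genes tested were. With the left-out library included they were -1.29, -1.59, -1.31, -0.60 and -0.47 (adjusted p from 0.172 to 0.371 in edgeR). These comparisons share their groups with those above.

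**Figure D2:**
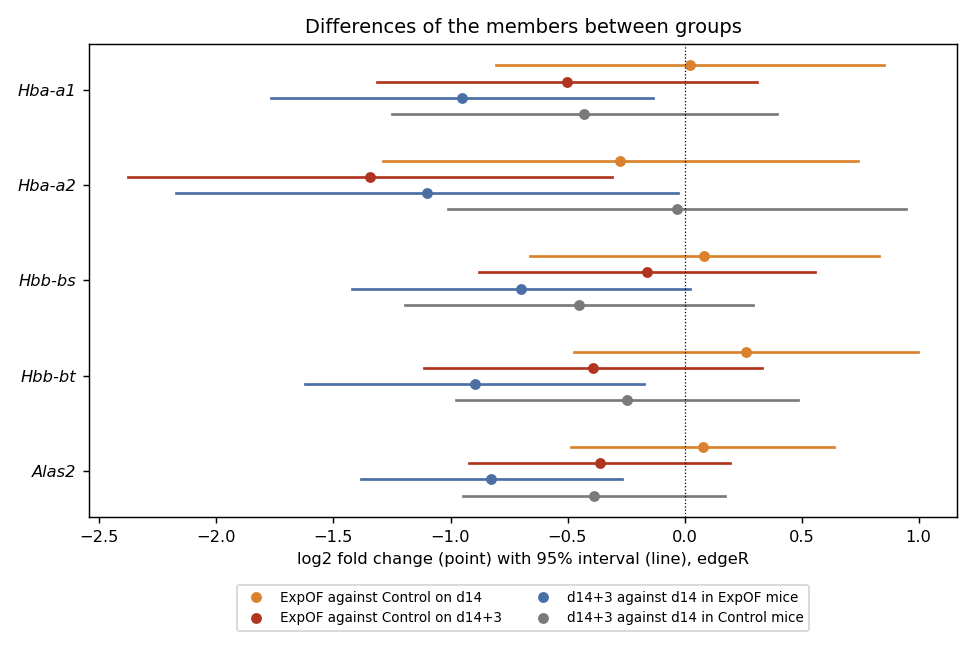
Log2 fold change (points) with its 95% interval (lines) from edgeR for the 5 genes in the 4 comparisons of groups. The d14+3 against d14 values in ExpOF mice lie furthest below 0 for 4 of the genes, from -0.70 to -0.95, while Hba-a2 is lowest in ExpOF against Control on d14+3 at -1.34.

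The labels give 3 further properties of each mouse that could go with residual blood: the cohort (killed in July or in September), the round of RNA extraction and the RNA integrity number (RIN). None of the 5 genes was called for cohort (0% of the genes tested), with July minus September values between -0.14 and 0.11 on the log2 scale. None was called for extraction round (0%), although all 5 values were higher in round 2 (51.7% of all genes were), by 0.27 to 0.49. With the left-out library included the 5 were higher by 0.30 to 0.97 (adjusted p = 0.849 in edgeR). None was called for RIN (0%), and 0 of the 5 had an unadjusted p under 0.05 for any of the 3. RIN averaged 9.20 ± 0.860 in Control d14 (n = 5), 9.75 ± 0.138 in ExpOF d14 (n = 6), 8.62 ± 1.09 in Control d14+3 (n = 6) and 9.43 ± 0.450 in ExpOF d14+3 (n = 6). DESeq2 was not run for these 3 terms.

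The levels of the 5 genes moved together from mouse to mouse. Over the 23 libraries, log2 CPM of Hbb-bs had a Pearson r of 0.96 with Hba-a1, 0.93 with Hbb-bt, 0.84 with Alas2 and 0.79 with Hba-a2 (Spearman's rho 0.96, 0.91, 0.79 and 0.79). For each of these Pearson coefficients the permutation test with 100000 resamples gave p = 1e-05, the smallest it can give, and 1.5e-05 after adjustment over the 6 relations computed. Spearman's rho had p from 1e-05 to 3e-05. With RIN, Hbb-bs had r = 0.12 (permutation p = 0.593, adjusted 0.593) and rho = 0.10 (permutation p = 0.648). With the library total it had r = -0.25 (permutation p = 0.245, adjusted 0.294) and rho = 0.01 (permutation p = 0.963). The near copies share reads, so their relation is in part one of sequence, but Alas2 shares no 51-base stretch with any globin.

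These relations did not rest on the extreme libraries. Without the 2 farthest from the median of Hbb-bs (ExpOF d14 replicate 5 and ExpOF d14+3 replicate 3), r was 0.94 with Hba-a1, 0.90 with Hbb-bt, 0.72 with Alas2 and 0.67 with Hba-a2 (permutation adjusted p of at most 0.0013). After group means were removed, r was 0.96, 0.93, 0.80 and 0.85. In the July cohort r was 0.96, 0.96, 0.89 and 0.87 over 12 libraries, and in the September cohort 0.95, 0.88, 0.74 and 0.57 over 11, where the value for Hba-a2 missed the threshold by Pearson's r (permutation p = 0.0685, adjusted 0.103) but not by Spearman's rho (0.70, permutation adjusted p = 0.0296).

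**Figure D3:**
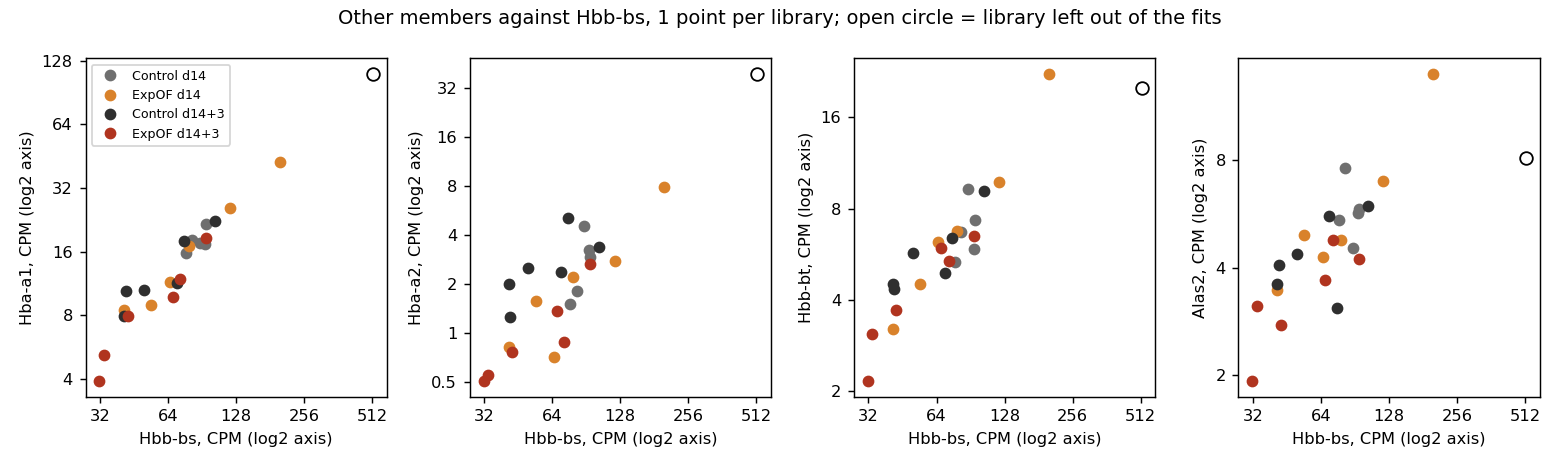
CPM of Hba-a1, Hba-a2, Hbb-bt and Alas2 against CPM of Hbb-bs, 1 point per library coloured by group (log2 axes); the open circle is Control d14 replicate 4, scaled together with the other 23 libraries. The 23 filled points lie along a line in each panel (r from 0.79 to 0.96); the open circle, at 517 CPM of Hbb-bs, lies far below that trend for Alas2 (8.09 CPM).

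Which other transcripts vary with this signal was asked of every gene by adding log2 CPM of Hbb-bs to the group model as a covariate. Of 18991 genes tested, edgeR called 4 (0.0211%), and these were the other 4 genes of the set. The slope, the log2 change per log2 unit of Hbb-bs, was 1.10 for Hba-a1 (SE 0.067, adjusted p = 1.99e-10), 0.99 for Hbb-bt (SE 0.087, adjusted p = 2.91e-07), 1.30 for Hba-a2 (SE 0.18, adjusted p = 8.83e-04) and 0.66 for Alas2 (SE 0.10, adjusted p = 0.00743). Alas2 thus changed less than in proportion to Hbb-bs (95% interval of the slope 0.44 to 0.88), while the intervals of the 3 globins included 1. The next genes were Fcor, Cyba and Hes1 (all adjusted p = 0.189), and DESeq2 called 7 genes, the 4 and these 3.

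The count of 4 depended on a single library. Without ExpOF d14 replicate 5 edgeR called 2664 genes (14.1%), 1351 of them with a positive slope, and the members then ranked 1 (Hba-a1), 2 (Hbb-bt), 5 (Hba-a2) and 51 (Alas2) by p, with slopes of 1.11, 0.86, 1.17 and 0.51. Without ExpOF d14 replicate 6, or with cohort and extraction round in the model, Alas2 lost its call (adjusted p = 0.0601 and 0.0510 in edgeR) and the other 3 members were called alone. Without any single one of the other libraries the 4 members were called, and 1 further gene (Gm32281) was called without ExpOF d14+3 replicate 3. In the 23 libraries 12.3% of genes had a positive slope with an unadjusted p under 0.05, so a small p alone does not set a gene apart here. With all 24 libraries 9304 genes were called.

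**Figure D4:**
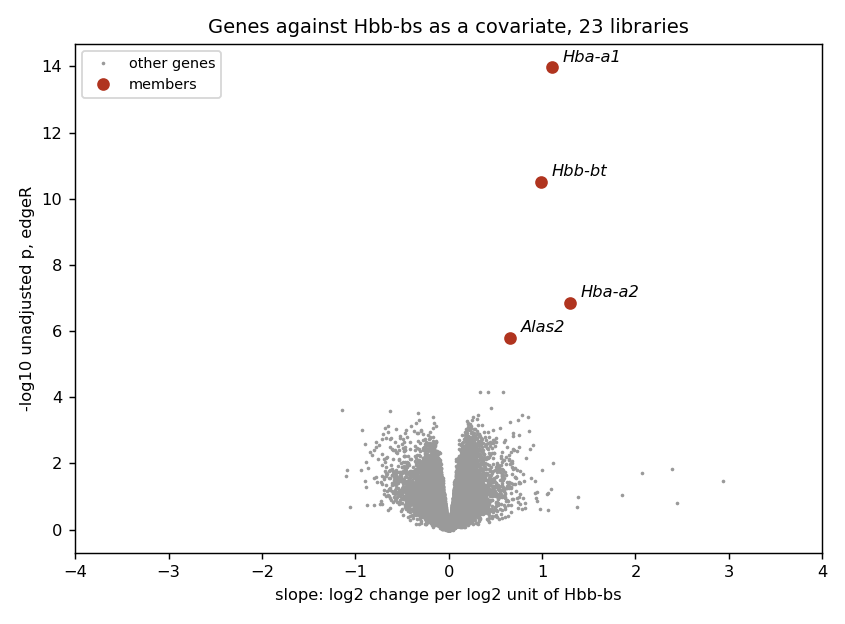
Slope on log2 CPM of Hbb-bs (x axis, log2 change per log2 unit) against -log10 of the unadjusted edgeR p (y axis) for each gene tested in the 23 libraries, with the 4 other members in red. The members, with slopes of 0.66 to 1.30, stand above all other genes, the next of which have an adjusted p of 0.189.

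Outside the set, the genes most like Hbb-bs by Pearson r over the 23 libraries were Tekt2 (0.76), Echdc3 (0.74), Prlh (0.74), Lhx3 (0.74), Apmap (0.72), Gm20337 (0.71), Ggn (0.71), Cabcoco1 (0.70), Il25 (0.68) and Med18 (0.67). The 5th and 95th percentiles over all tested genes were -0.44 and 0.46. These values are a description, with the libraries shared by every gene. None of the 10 was called in the covariate model.

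Of the defining genes of red cells and their precursors, the adult globins and Alas2 were the ones clearly counted, and most others were near 0. Slc4a1 (the band 3 anion exchanger) averaged 0.112 CPM, and the erythroid transcription factors Klf1 and Gata1 0.201 and 0.0246. Of the 20 listed genes of erythroid membrane, regulators and enzymes 19 were found and 6 tested, and those with the most counts were Bpgm (70.2 CPM, which makes the allosteric regulator of hemoglobin), Tspan33 (48.0) and Epor (3.07, the erythropoietin receptor). None was called with Hbb-bs, and their slopes ran from -0.29 to 0.23. Embryonic globins were absent or nearly so: Hba-x, Hbb-bh1 and Hbb-bh2 had 0 counts in all 23 libraries, and Hbb-y had counts in 8 of them. Cytoglobin (Cygb, 104 CPM) and neuroglobin (Ngb, 85.8 CPM) were not called with Hbb-bs, at slopes of 0.07 and 0.04, and Hbq1a (0.920 CPM) had -0.07.

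Haem genes other than Alas2 had smaller slopes than the members. All 12 genes of haem synthesis were tested and none was called. Of them 10 had a positive slope, 7 with an unadjusted p under 0.05 (12.3% of all genes), and the median was 0.11, against 0.0035 over all genes. The most counts fell on Slc25a39 (112 CPM, slope 0.16), Fech (60.3 CPM, slope -0.03) and Alas1 (54.8 CPM, slope 0.11), the form of the enzyme used outside erythroid cells. Of haem breakdown and iron handling all 12 were tested and none called (median slope 0.15, with 5 positive and 1 negative at an unadjusted p under 0.05), with Fth1 (ferritin heavy chain, 1287 CPM), Trf (listed under its older name Tf, transferrin, 512 CPM) and Tfrc (transferrin receptor, 125 CPM) taking the most counts.

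Markers of other blood cells were few. The summed neutrophil markers ran from 1.50 to 38.5 CPM over the 23 libraries and peaked in a Control d14 library, with Lcn2 (3.54), S100a9 (1.86) and S100a8 (1.17 CPM) taking the most counts. Of its 10 genes 7 were tested, none was called with Hbb-bs, and 1 had a positive slope (median -0.41). Summed lymphocyte markers ran from 10.8 to 65.3 CPM, nearly all of it Ighm (19.3 CPM), followed by Cd79a (0.452) and Cd79b (0.337), and 2 of 10 were tested, with a median slope of 0.13. For blood monocytes, 4 of 5 were tested (sum 1.39 to 18.0 CPM, led by F13a1, Ccr2 and Plac8). All 4 slopes were positive (median 0.55, SEs from 0.35 to 0.58), where 51.1% of all genes had a positive slope. Of the 4, 0 had an unadjusted p under 0.05. Platelet markers summed to 7.77 to 11.5 CPM, mostly Itga2b (7.06 CPM) before Gp1ba (1.02) and Pf4 (0.522), and 5 of 8 were tested with a median slope of 0.15. None of these was called.

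Vessel cells and neighbouring tissues were read in the same way, since they may enter a dissection with blood. Of the endothelial genes all 12 were tested and 3 had a positive slope (median -0.04), led by Slc2a1 (106 CPM), Flt1 (68.9) and Slco1a4 (56.1). All 9 genes of pericytes and smooth muscle were tested (median slope 0.09), led by Rgs5, Vtn and Pdgfrb at 90.2, 67.8 and 31.0 CPM. The 6 choroid plexus genes (median slope 0.61, SEs from 0.10 to 1.65) were dominated by Ttr, from 1.01 to 2889 CPM, ahead of Clic6 (27.9) and Kl (10.5). The 6 genes of the leptomeninges had a median slope of 0.23, with Col1a2 (23.3), Dcn (16.7) and Col1a1 (10.1 CPM) taking the most counts. For the pituitary 2 of 6 genes were tested, Gh (0 to 94.8 CPM, slope 2.94, SE 1.28) and Tshb (slope -0.25, SE 0.10). Prl (1.14 CPM) was too low to test. The 5 hypothalamic genes had a median slope of 0.33 and were led by Pmch (291 CPM), Oxt (99.3) and Hcrt (88.4). None of all these was called, and the part of these cells in the globin levels was not tested.

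Over all 14 lists, 91 of 129 genes were tested. None was called between ExpOF and Control mice on either day, in the interaction, between days in ExpOF mice, or for cohort, extraction round, RIN or Hbb-bs. Between days in Control mice Slc25a37, a mitochondrial iron importer, was called higher on d14+3 (log2 fold change 0.40, SE 0.072, adjusted p = 0.00753 in edgeR), and Ngb (-0.39, SE 0.085, adjusted p = 0.0198) and Gh (adjusted p = 0.0300, with counts in only 13 of 23 libraries) were called lower. These are 3 of 91, in the comparison that called 1.15% of all genes tested.

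The proportions of the chains to each other were more stable than their levels, but not constant. Beta counts per alpha count (Hbb-bs plus Hbb-bt over Hba-a1 plus Hba-a2) averaged 4.51 ± 0.275 in Control d14 (n = 5), 4.94 ± 0.608 in ExpOF d14 (n = 6), 4.37 ± 0.648 in Control d14+3 (n = 6) and 6.14 ± 1.03 in ExpOF d14+3 (n = 6). On d14+3 the ExpOF libraries ran from 4.75 to 7.73 and the Control libraries from 3.55 to 5.46, so that they overlapped. The highest ratio was that of ExpOF d14+3 replicate 3 (7.73, 95% exact binomial interval 6.24 to 9.66), which has the fewest globin counts. Such intervals cover counting error only, since the reads carry no molecular identifiers, and the groups were not tested on ratios.

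Hba-a2 made up 13.2% ± 4.92 of alpha counts in Control d14, 11.1% ± 3.74 in ExpOF d14, 17.1% ± 4.37 in Control d14+3 and 10.2% ± 2.20 in ExpOF d14+3. Between single libraries the share ran from 5.87% to 22.0%, with intervals such as 3.80% to 8.61% for ExpOF d14 replicate 1 and 18.9% to 25.5% for Control d14+3 replicate 3 that did not overlap. Its share was thus lower in both ExpOF groups than in the Control group of the same day, by less than the SD on d14 and by more on d14+3. Hbb-bt was steadier at 5.93% to 10.2% of beta counts. Alas2 had 4.10 to 9.78 counts per 100 counts of Hbb-bs, with group means from 6.42 to 7.51.

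**Figure D5:**
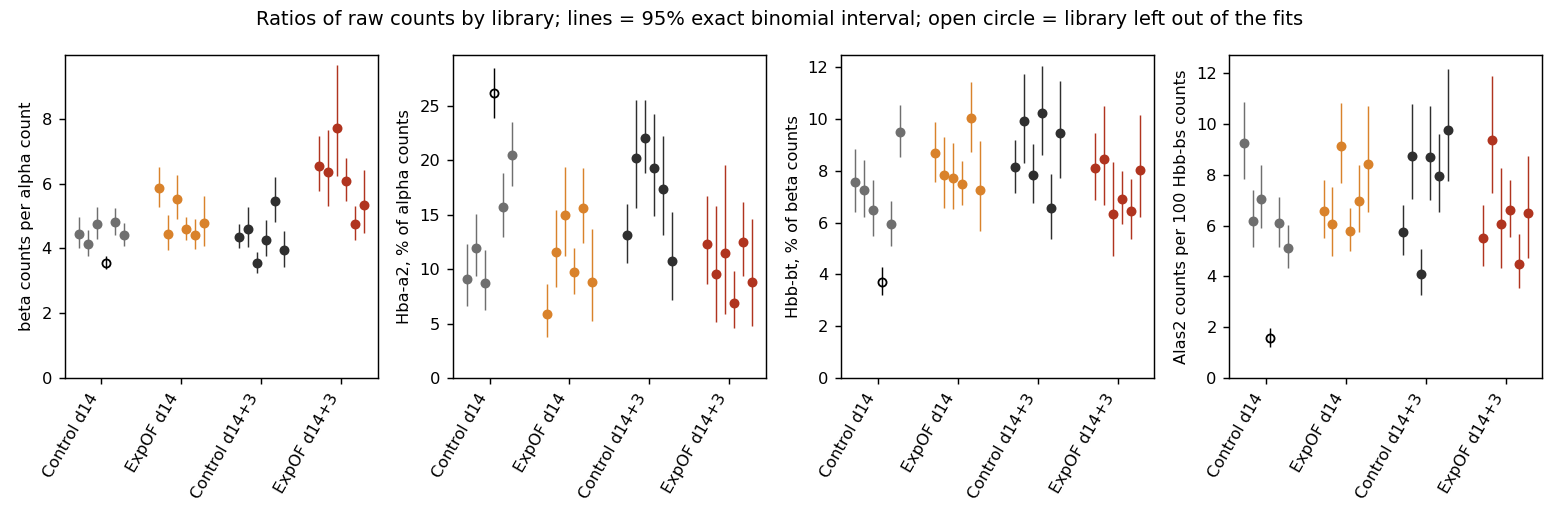
Ratios of raw counts in every library with 95% exact binomial intervals (lines): beta per alpha count, Hba-a2 as a percentage of alpha counts, Hbb-bt as a percentage of beta counts, and Alas2 per 100 Hbb-bs counts; all axes start at 0. The open circle, Control d14 replicate 4, stands apart in the share of Hba-a2 (26.1%), the share of Hbb-bt (3.72%) and Alas2 per 100 Hbb-bs (1.56).

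The left-out library Control d14 replicate 4 held the most globin of all 24, but in other proportions. Scaled with all 24 libraries it had 517 CPM of Hbb-bs, 111 of Hba-a1, 39.4 of Hba-a2, 20.0 of Hbb-bt and 8.09 of Alas2. These are 5.98, 6.20, 14.1, 2.91 and 1.40 times the mean of the other Control d14 libraries on the same scale. Hbb-bs, Hba-a1 and Hba-a2 lay above all 23 other libraries, while Hbb-bt and Alas2 lay below ExpOF d14 replicate 5. Among 18767 genes ranked by fold over the median of the other libraries (0.5 CPM added to both), Hba-a2 was at rank 16, Hba-a1 at 90, Hbb-bs at 162, Hbb-bt at 1157 and Alas2 at 3921, so the globin excess was one among many differences of this library.

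This library also stood apart in the sums of several lists, that of hypothalamic tissue included, each driven by some of the genes. Its summed choroid plexus markers were 4498 CPM (36.1 to 3044 in the 23 others), of which Ttr made up 4426 CPM. Clic6, Kl, Folr1, Kcne2 and Otx2 lay within the range of the others, whose median sum was 42.8 CPM. Folr1 (20.5 CPM), Kcne2 (8.19) and Kl (16.6) lay above their means over the 23 others (2.09, 1.07 and 10.5 CPM), and Clic6 and Otx2 below theirs. Its platelet markers summed to 23.4 CPM (7.77 to 11.5). Of them Itga2b, Gp1ba, Gp1bb and Treml1 lay above all 23 others, and Pf4, Gp9, Ppbp and Gp6 did not. Its genes of haem breakdown and iron handling summed to 7213 CPM (1732 to 2896), of which Fth1 made up 5830 CPM. Its hypothalamic genes summed to 2283 CPM (381 to 1066). Of them Oxt (760 CPM), Avp (600) and Hcrt (563) lay above all 23 others, and Pmch and Nkx2-1 did not. Above all 23 others were also its sums for haem synthesis (779 CPM), erythroid membrane, regulators and enzymes (206), other globins (259), and pericytes and smooth muscle (266). Its summed neutrophil markers, 31.0 CPM, lay within the range of the others although S100a8 (6.96) and S100a9 (9.22 CPM) lay above it, and within the range were also those of lymphocytes (42.2 CPM) and blood monocytes (10.0 CPM). Slc4a1 was at 0.717 CPM, and Gata1 had 0 counts. Among the genes with the largest folds over the other libraries were also Cfd (21.4-fold), Fabp4 (19.1), Retn (18.4), Lep (14.7) and Adipoq (14.0), all known from fat tissue and picked out after their values were seen. Genes of other kinds had like folds, among them Bc1 (21.3), Gm44677 (19.9), Folr1 (16.3) and Atp5e (13.7). Its RIN is given as 9.8 in the labels. The part of these differences in its globin level was not tested.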

How the data were processed

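Polyadenylated RNA of the hypothalamus was sequenced in paired 51-base reads, 1 library per mouse. The whole-number counts per gene are those the authors deposited; they mapped reads with STAR to mm10 and counted with featureCounts 1.6.4 on GENCODE vM22, and the treatment of multi-mapping reads and the strand setting are not given in the sources used here. The mouse the study left out for RNA quality was identified as Control d14 replicate 4: of the 6 possible omissions, only that one gave mean normalised counts over the samples within 0.000484% of the study's own over 1992 genes (55.5% or more at the largest deviation for the others). None of the 60 pairs of libraries within groups agreed within sampling noise.

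Differences were fitted to the counts with edgeR 4.0.16 (R 4.3.3), using TMM factors, filterByExpr (minimum count 10, minimum total 15) and a robust quasi-likelihood fit of the 4 groups over 23 libraries, with Benjamini-Hochberg adjustment over 18992 genes, called at 0.05. DESeq2 1.42.0, the tool of the study, was an alternative. Log2 CPM for correlations and the covariate used a prior count of 2. Single genes had two-sided exact permutation tests, and correlations 100000 resamples. Replicates are separate mice, so p-values measure the spread between mice. Scripts were tested on simulated data. Alternatives changed the scaling, filter, samples, covariates and test, or left out each library. Genes named outside the set were the genes called with Hbb-bs, the 10 most correlated with it, those of each list with the most counts and any list gene called. The members and the lists were chosen with earlier results of these data known. Of 129 list symbols 128 were found; Ahsp was not analysed here. Depth is given with the results; intervals of shares are 95% exact binomial.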

Additional observations from a re-analysis of the deposited data

Results flagged for a closer look

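In ExpOF d14 the highest library, replicate 5, stood far from the other 5 for 3 genes. Hba-a2 was at 7.89 CPM, with the others between 0.715 and 2.75 CPM. Hbb-bt was at 22.3 CPM, with the others between 3.21 and 9.78, and Alas2 was at 14.0 CPM, with the others between 3.45 and 6.99. The gap to the next library was 0.716, 0.656 and 0.664 of the group's whole range, above Dixon's critical value of 0.625. Of 20 groups of values examined, 3 passed it, where chance gives about 1 in 20 if values are normally distributed. The test was made on CPM and not on log2 CPM, on which high values lie closer to the rest. All 3 flags come from 1 library. It is also the shallowest of the 23, at 8928182 counts.

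Control d14 replicate 4, which the main fits leave out, lay above every other Control d14 library for all 5 genes, at 111 CPM of Hba-a1, 39.4 of Hba-a2, 517 of Hbb-bs, 20.0 of Hbb-bt and 8.09 of Alas2.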

How the results depend on the processing

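Of 304 alternative values for the 5 genes, 274 kept their direction, 30 turned it, and 0 passed the threshold, the smallest adjusted p being 0.0660 (Alas2 between days in ExpOF mice, DESeq2). With all 24 libraries the d14 values of Hba-a1, Hbb-bs and Hbb-bt were -0.82, -0.76 and -0.059, the interactions of Hba-a1, Hba-a2 and Hbb-bs 0.31, 0.46 and 0.59, and the cohort value of Hba-a2 was -0.47. In July alone Hba-a2 was at 0.036 on d14. In September alone Hba-a1, Hbb-bs, Hbb-bt and Alas2 were at -0.31, -0.29, -0.10 and -0.37 on d14 and Hbb-bs at 0.25 on d14+3. With RIN as a covariate Hba-a1 was at -0.049 on d14 and Hba-a2 at 0.050 between days in Control mice. With cohort and round Hba-a1 was at -0.061 on d14, and with the near copies summed at -0.0033. The interaction of Hbb-bs without ExpOF d14 replicate 5, chosen after seeing the data, was 0.12. The cause of these turns was not tested.

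Leaving out each library gave, on d14, -0.34 to 0.18 for Hba-a1, -0.83 to -0.03 for Hba-a2, -0.28 to 0.24 for Hbb-bs, -0.19 to 0.44 for Hbb-bt and -0.24 to 0.20 for Alas2. On d14+3 it gave -0.78 to -0.29, -1.75 to -1.08, -0.36 to 0.036, -0.52 to -0.21 and -0.49 to -0.24 in the same order. The number of genes called with Hbb-bs ran from 3 to 2664; it was 9304 with all 24 libraries and 7 in DESeq2. With all 24 libraries the correlation of Hbb-bs with the library total was -0.50 (permutation adjusted p = 0.0238). Among all tested genes 1 was called on d14, against 2 with only those groups fitted, 0 in either cohort alone and 166 in DESeq2, and on d14+3 it was 0, against 26 with RIN as a covariate and 55 in DESeq2.

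Replicate numbers are shared between groups, but same-numbered samples did not deviate together (r from -0.21 to 0.22). They do share the round of RNA extraction, since replicates 1 to 3 of every group were in round 1 and replicates 4 to 6 in round 2. With the replicate number as a block Hba-a1, Hbb-bs and Alas2 were at -0.20, -0.14 and -0.040 on d14, and the numbers of genes called were again 1 and 0.

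Depth limits Hba-a2 most, with as few as 11 counts in a library.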
